A study of Mus musculus with 4 samples.

Results

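The 9 chemokine genes of the neonatal mouse reproductive tract described here are Cxcl1, Cxcl12, Cxcl13, Cxcl14, Cxcl16, Ccl2, Ccl7, Ccl11 and Cx3cl1, which are 9 of the 31053 genes in the count tables. They were chosen by their measured levels in stroma, muscle and vessels in these same libraries, and found by symbol, so their order across cell classes is given as a description without a test. Each symbol matched 1 gene. All 4 libraries came from wild-type CD1 mice on postnatal day 3 that received no treatment: 2 libraries from oviduct and 2 from uterus, made with the 10x Chromium 3' v3.1 chemistry from tissue dissociated with Collagenase B, DNase I and Dispase II. The design text says that each organ's replicates were pools from the same animals, 3 and 4 neonates. It does not say which pool a library number marks, so the organ tests leave the number out unless stated. Their p-values rest on the spread between 2 pooled libraries per organ, with information shared over all genes. Fits with the number or the library as a term take out part of that spread.

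Chemokines are small secreted proteins that bind G protein-coupled receptors and steer migrating cells along gradients. Some are made steadily by resting tissue, such as Cxcl12, which holds Cxcr4-bearing cells in place. Others, among them Cxcl1 and Ccl2, are induced quickly by inflammatory signals and call in neutrophils and monocytes. Cx3cl1 and Cxcl16 are unusual in being made as membrane-bound proteins with the chemokine domain on a stalk.

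The libraries held 5716 to 7808 called barcodes and 61117726 to 114419939 unique molecular identifiers (UMIs, each 1 counted transcript molecule), and 3872 to 6488 cells per library passed the filters. Any pair of libraries shared 8 to 15 barcodes. Cells were placed in classes by marker genes, of which 7 are used: mesenchyme (1659 to 3532 cells per library), smooth muscle (372 to 771), pericytes, the mural cells of small vessels (158 to 190), blood endothelium (138 to 185), mesothelium, the covering layer (63 to 468), epithelium (42 to 222) and myeloid cells (33 to 79). The labels call the material mesenchymal and epithelial cells; both were present beside the other 5 classes. The cut between mesenchyme and smooth muscle ran through a continuum, with 14.9% of mesenchymal and 27.1% of muscle cells near it. Another 647 to 756 cells per library fell between the 2 and were left out of both. They held 10.2%, 13.1%, 30.7% and 29.6% of the Cxcl12 UMIs and 19.0%, 23.8%, 32.6% and 33.6% of the Cxcl14 UMIs of the 4 libraries. Erythroid cells (91 to 448 per library) and unassigned cells (149 to 472) were not used either. Different clusters filled some classes in the 2 organs. Oviduct mesenchyme was led by a Wnt16 and Enpp2 cluster (27.4% of its cells) and uterine mesenchyme by a Plac8 and Hoxd11 cluster (46.0%). Oviduct muscle lay mostly in a Tnnt2 and Myh11 cluster (58.5%), and uterine muscle in a Pcp4 and Fbxl22 cluster (58.1%). Levels below are CPM, the UMIs of a gene per 1000000 UMIs of a class summed within a library. The value of a gene is always given in the order oviduct library 1, oviduct library 2, uterus library 1 and uterus library 2. The counts come from transcript 3' ends, and levels are compared within a gene, never between genes.

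In the GRCm38 (mm10) annotation, Ccl2 (chr11:82035571-82037453), Ccl7 (chr11:82045712-82047525) and Ccl11 (chr11:82057823-82062955) lie next to each other on the plus strand. Cxcl1 (chr5:90891241-90893115) and Cxcl13 (chr5:95956951-95961068), both on the plus strand, share chromosome 5. Cxcl16 (chr11:70453983-70459984, minus) lies elsewhere on chromosome 11. Cxcl12 (chr6:117168535-117181367, plus), Cxcl14 (chr13:56288643-56296551, minus) and Cx3cl1 (chr8:94772009-94782427, plus) each lie on a chromosome with no other member. Exons of Cxcl16 overlap exons of Zmynd15 on the other strand. Gm17268, on the minus strand, overlaps the span of Ccl2, but the exons of the 2 genes do not overlap. Whether the authors' counting used strand is not given in the sources used here, so for Cxcl16 reads of the partner cannot be told apart.

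Promoter sequence, the 250 bases before the transcript start in RefSeq (GRCm38.p6), was found for 5 of the 9 genes. Those of 3 genes are printed, because Cxcl1 changed with the library number in most classes, while Cxcl12 and Cxcl13 were detected together in stromal cells. Capitals mark an NF-kB motif in Cxcl1, each match of CCGCCC on either strand in Cxcl12, and the TATA motif in Cxcl13.
Cxcl1, chr5:90890995-90891244, plus strand: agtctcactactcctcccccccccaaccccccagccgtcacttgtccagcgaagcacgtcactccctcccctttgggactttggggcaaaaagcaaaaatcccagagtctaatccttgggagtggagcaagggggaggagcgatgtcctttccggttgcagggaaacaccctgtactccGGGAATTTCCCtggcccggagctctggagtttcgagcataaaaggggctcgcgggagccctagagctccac
Cxcl12, chr6:117168285-117168534, plus strand: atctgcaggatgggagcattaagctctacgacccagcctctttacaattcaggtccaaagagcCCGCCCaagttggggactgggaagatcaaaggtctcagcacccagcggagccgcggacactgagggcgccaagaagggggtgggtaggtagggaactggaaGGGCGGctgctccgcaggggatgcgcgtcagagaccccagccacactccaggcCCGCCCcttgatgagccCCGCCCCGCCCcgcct
Cxcl13, chr5:95956689-95956938, plus strand: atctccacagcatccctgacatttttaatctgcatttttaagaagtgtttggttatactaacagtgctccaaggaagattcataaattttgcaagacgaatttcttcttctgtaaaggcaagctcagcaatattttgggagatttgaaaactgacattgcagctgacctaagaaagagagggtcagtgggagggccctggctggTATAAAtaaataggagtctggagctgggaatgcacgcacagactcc
The capitals in Cxcl1 are 2 overlapping matches, which begin 71 and 70 bases before the start. An NF-kB match on either strand stood in 7.01% of 27025 promoters of the same length. NF-kB is the transcription factor that inflammatory signals release into the nucleus. Cxcl12 held 5 matches of CCGCCC, a motif present in 32.9% of promoters, and no TATA motif. Cxcl13 held a TATA motif 46 bases before its start, as 8.12% of promoters did on the given strand. None of these matches shows binding.

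Cxcl12, the ligand of Cxcr4, was read in mesenchyme, muscle and both vascular classes and was low in epithelium. Mesenchyme held 61.4, 63.6, 64.8 and 71.9 CPM, a narrow range in which the class sums of the organs lay close together. Within mesenchyme, both inside and outside the Nefm and Nefl cluster given below, both uterine libraries lay above both oviduct ones. Smooth muscle held 52.9, 47.7, 128 and 122 CPM. Both uterine muscle libraries lay above both oviduct ones, and the log2 fold change of oviduct over uterus was -1.33 ± 0.10 (SE, n = 2 libraries per organ, edgeR adjusted p = 3.53e-07). Pericytes held 77.1, 42.8, 49.5 and 54.3 CPM, and the organs overlapped there. Epithelium had 1.47 to 6.96 CPM, of which free RNA could account for up to 44.5%.

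In smooth muscle the share of cells with a Cxcl12 UMI, after each cell was thinned to 3000 UMIs, was 11.97%, 11.3%, 30.7% and 28.6%, and 32.2%, 27.3%, 67.9% and 72.3% before thinning. In epithelium, which had the lowest Cxcl12 levels, the thinned share was 0%, 2.67%, 2.94% and 7.41% of 27 to 187 cells, and 0 of 115 cells allows a share of up to 2.61%. Median depth before thinning was 13558 to 16310.5 UMIs in muscle and 5122 to 24633 in epithelium. The muscle shares lay above those in every library, and both uterine shares lay above both oviduct ones. The mesenchymal log2 fold change of Cxcl12 was -0.18 ± 0.09 and missed the threshold (adjusted p = 0.119). It depended on how mesenchyme was drawn: a stricter marker gate gave -0.78 and clusters in place of the gate gave -0.56, both past the threshold. The organ effect in mesenchyme minus that in smooth muscle was 1.15 ± 0.10 (edgeR interaction test, adjusted p = 1.343e-06, where 15.1% of 14623 genes passed). That test compares whole class sums and was not repeated with the stricter gate or with clusters in place of the gate.

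Blood endothelium had 165, 72.8, 59.5 and 56.2 CPM of Cxcl12. Oviduct library 1 stood well above the other 3 libraries. The log2 fold change was 1.10 ± 0.22 (edgeR adjusted p = 0.002402), but it was 0.34 without oviduct library 1 and no longer passed, nor did it pass without uterus library 2 or with DESeq2. In 151 endothelial cells of that library a single cell held 18.8% of the Cxcl12 UMIs.

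Cxcl14, a chemokine of resting epithelia and stroma, had its highest levels in smooth muscle, with 146, 142, 364 and 341 CPM. Both uterine libraries lay far above both oviduct libraries, and oviduct over uterus gave -1.32 ± 0.09 on the log2 scale (edgeR adjusted p = 9.831e-08). After thinning, 26.1%, 25.0%, 55.9% and 54.8% of muscle cells had a Cxcl14 UMI (42.7%, 44.4%, 83.5% and 82.0% before). In blood endothelium, with 1.27 to 2.45 CPM, the thinned share was 0.649% to 1.65%, which sets the background.

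In mesenchyme Cxcl14 stood at 54.2, 52.2, 50.9 and 50.1 CPM, and no organ difference was detected (0.03 ± 0.08, adjusted p = 0.781). With clusters in place of the gate the mesenchymal value was -0.47 and passed. Those clusters include the Tcf21 and Lum cluster given below, with many cells between mesenchyme and muscle. The organ effect in mesenchyme minus that in muscle was 1.34 ± 0.06, and this test was not repeated with clusters in place of the gate. Mesothelium had 29.7, 33.5, 108 and 92.8 CPM, again higher in uterus without overlap (-1.67 ± 0.14, adjusted p = 4.101e-05). Of the 7 members tested in mesothelium 1 passed, where 8.34% of 12894 genes did. In smooth muscle Cxcl12 and Cxcl14 were the 2 members that passed of 7 tested, where 26.2% of 12767 genes did.

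Cxcl13, the attractant of B cells through Cxcr5, was a gene of few mesenchymal cells. Mesenchyme had 26.4, 21.6, 8.42 and 6.21 CPM, with both oviduct libraries above both uterine ones (1.68 ± 0.14, edgeR adjusted p = 6.181e-06). Only 3.02%, 2.26%, 1.21% and 0.809% of thinned mesenchymal cells had a UMI (5.41%, 4.21%, 2.17% and 1.93% before). In uterus library 2 a single cell held 58.7% of the mesenchymal Cxcl13 UMIs. Blood endothelium had 0 UMIs in every library. Pericytes had 1.24, 30.4, 1.46 and 3.00 CPM. The value of oviduct library 2 came from 61 UMIs in 7 cells, 45.9% of them in 1 cell.

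**Figure D1:**
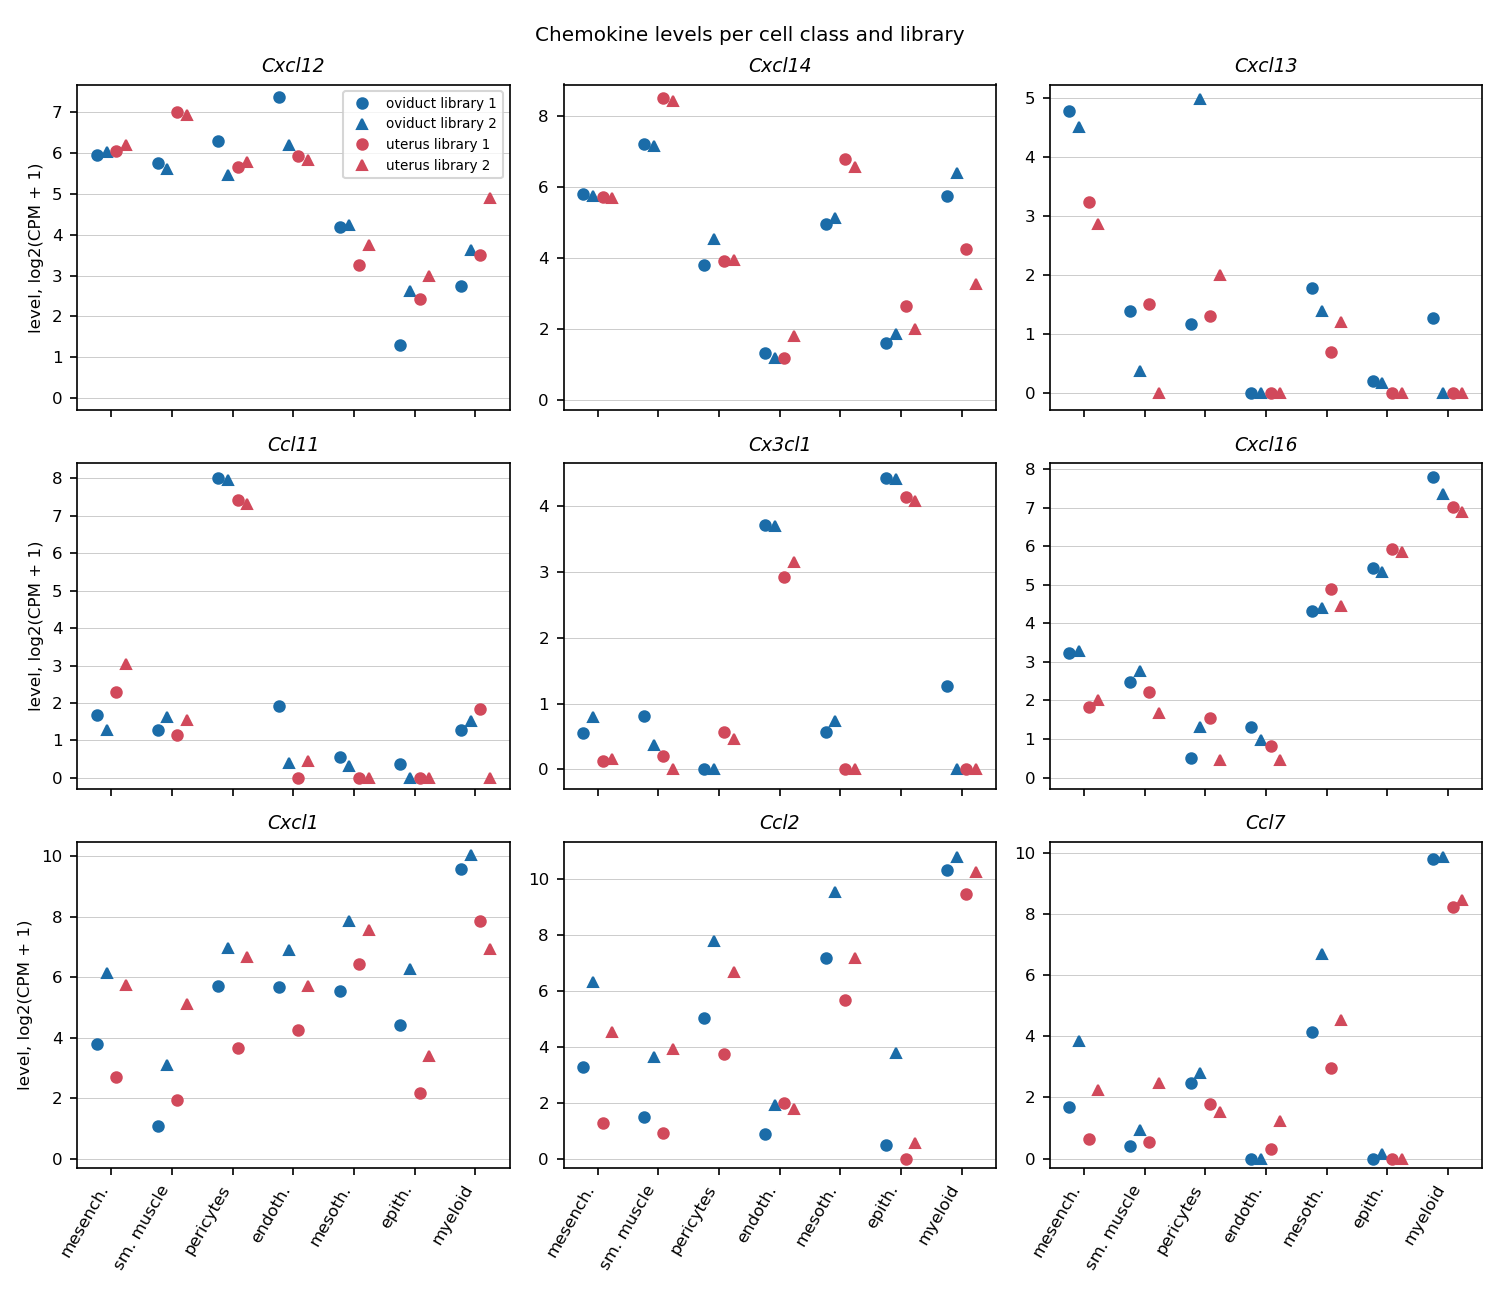
Level of each of the 9 chemokines, as log2(CPM + 1) on the vertical axis, in 7 cell classes on the horizontal axis; each point is 1 library (blue oviduct, red uterus, circles library 1, triangles library 2). Ccl11 stood out in pericytes at 158 to 256 CPM, Cxcl14 in smooth muscle at 142 to 364 CPM, and for Cxcl1 and Ccl2 the triangles lay above the circles in most classes.

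**Figure D2:**
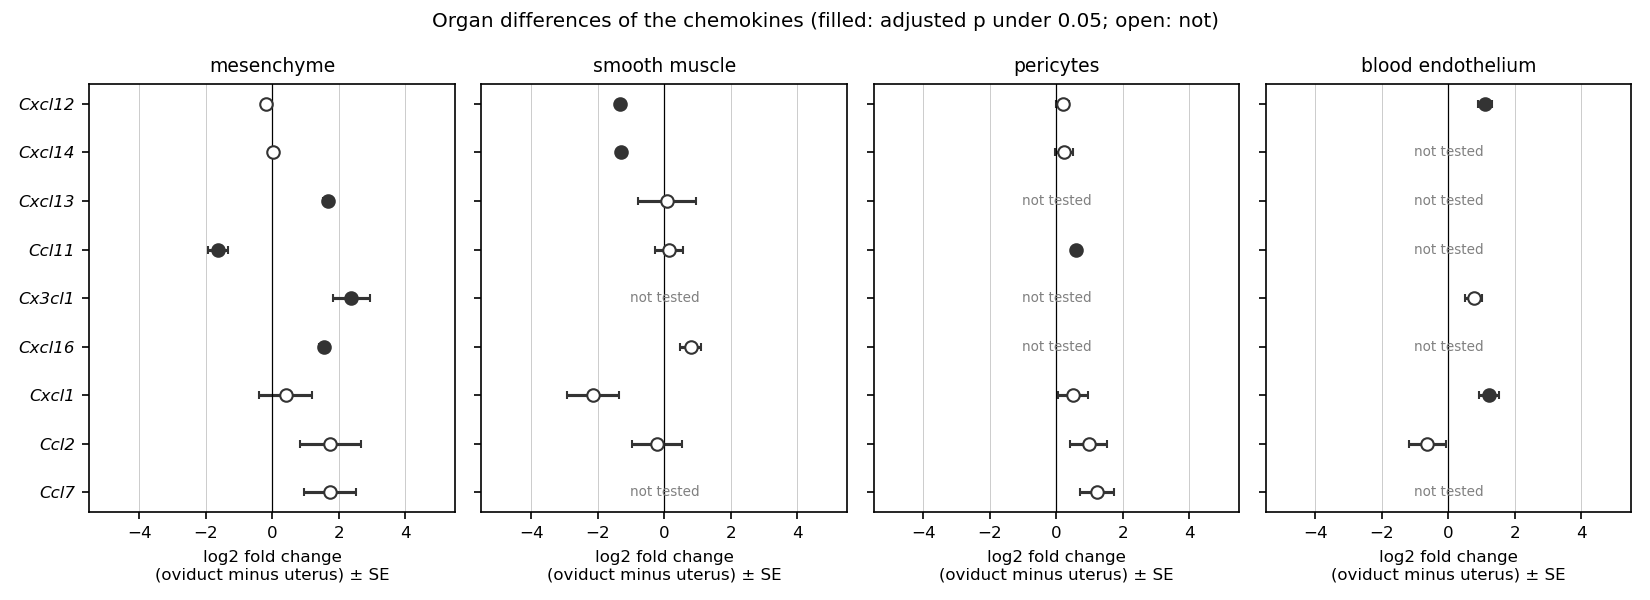
Log2 fold change of oviduct over uterus with its standard error for each chemokine in mesenchyme, smooth muscle, pericytes and blood endothelium; filled points passed an edgeR adjusted p of 0.05, and genes too low to test carry no point. Cxcl12 and Cxcl14 stood at -1.33 and -1.32 in muscle but at -0.18 and 0.03 in the class sum of mesenchyme.

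Clustering without chemokine or receptor genes showed how Cxcl12, Cxcl13 and Cxcl14 were spread over stromal cells. A cluster of 784 cells led by Nefm, Nefl, Agtr2, Pi15, Dpt and Postn, most of it from oviduct (419, 280, 44 and 41 cells), had 255, 286, 479 and 347 CPM of Cxcl12. Its Cxcl13 level was 174, 185, 225 and 22.0 CPM, so uterus library 2 lay far under the other 3. Its Cxcl14 level was only 8.33 to 14.1 CPM.

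Within gated mesenchyme, cells of that neurofilament cluster made up 10.4%, 8.87%, 1.93% and 1.23% of cells but carried 80.6%, 87.3%, 63.4% and 5.16% of the Cxcl13 UMIs. Inside the cluster Cxcl13 stood at 204, 207, 308 and 28.4 CPM. Outside it Cxcl13 stood at 5.72, 3.02, 3.14 and 5.96 CPM, and there the organs overlapped. In uterus library 2 a single cell held 91 of the 147 UMIs outside the cluster, against 8 UMIs inside it. Without the richest outside cell of each library, left out after the data were seen, the outside levels were 5.21, 2.72, 2.60 and 2.27 CPM and the organs no longer overlapped. Another cluster, led by Cenpf and Ccnb1 (218, 162, 3 and 6 cells), had 40.0 CPM of Cxcl13 over all its cells. Of these cells 283 were in gated mesenchyme, and their part in the outside levels was not counted. The oviduct also had the larger share of mesenchymal cells in the neurofilament cluster, and the 32 and 21 uterine cells do not settle the level inside it. Cxcl12 was less concentrated: the cluster held 44.1%, 36.6%, 13.2% and 7.02% of mesenchymal Cxcl12 UMIs, with 38.3, 44.4, 57.2 and 67.6 CPM left outside. Inside the cluster Cxcl12 stood at 260, 255, 494 and 448 CPM. Both inside and outside it both uterine libraries lay above both oviduct libraries, though the inside values of uterus rest on 32 and 21 cells.

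Cxcl14 followed other clusters. In oviduct it was highest among the stromal clusters shown in the one led by Angptl7 and Zim1, with 221 and 228 CPM beside 71.7 and 82.0 CPM of Cxcl12. In uterus the Tcf21 and Lum cluster had 257 and 216 CPM of Cxcl14 and also 205 and 205 CPM of Cxcl12. Of its 1137 cells over all libraries, 431 were gated as mesenchyme and 160 as smooth muscle, and 535 fell between these classes. Its levels are thus not those of mesenchyme alone, yet it counted as mesenchyme where clusters stood in place of the gate. The same cluster in oviduct, with 60 and 64 cells, had 36.7 and 78.8 CPM of Cxcl14 and 116 and 156 CPM of Cxcl12. The leading stromal cluster of the oviduct, with Wnt16 and Enpp2, was poor in both, at 19.1 and 17.9 CPM of Cxcl12 and 17.9 and 12.9 CPM of Cxcl14. The uterine Pcdh10 and A2m cluster had 98.6 and 112 CPM of Cxcl12 with 7.19 and 13.7 CPM of Cxcl14.

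**Figure D3:**
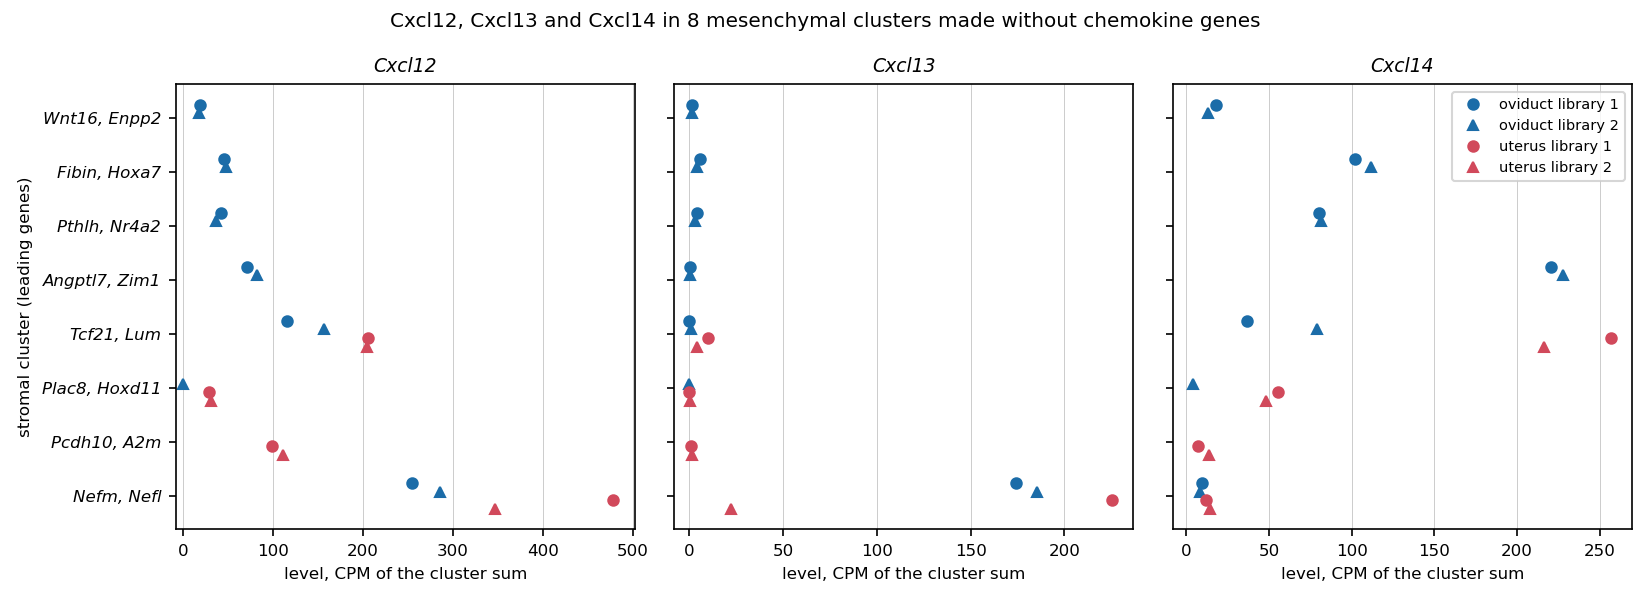
Level in CPM of Cxcl12, Cxcl13 and Cxcl14 (horizontal axes) in 8 mesenchymal clusters named by 2 leading genes (vertical axis); each point is 1 library with at least 20 cells in the cluster. The Nefm and Nefl cluster reached 225 CPM of Cxcl13 and 479 CPM of Cxcl12 with at most 14.1 CPM of Cxcl14. The Cenpf and Ccnb1 cluster is not shown. Fewer cells of the Tcf21 and Lum cluster were gated as mesenchyme (431) than fell between mesenchyme and smooth muscle (535).

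Detection in single cells was counted next. In thinned oviduct mesenchyme, 46 cells of library 1 had UMIs of both Cxcl12 and Cxcl13 where independent detection would give 13.3, and 21 cells of library 2 where it would give 6.80. Cxcl13 and Cxcl14 were found together in 3 cells against 10.5 in library 1 and in 0 cells against 5.58 in library 2. Cxcl12 and Cxcl14 were detected together about as often as independence gives, at 0.942 to 1.25 times that number in the 4 libraries. Cells of 1 library are not replicates, and these ratios carry no test.

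Ccl11, eotaxin, which draws eosinophils through Ccr3, was a pericyte gene here. Pericytes had 256, 249, 171 and 158 CPM. The next class, mesenchyme, had 2.18, 1.43, 3.88 and 7.22 CPM, so no library of another class came near. After thinning, 41.8%, 40.9%, 30.4% and 30.6% of pericytes had a Ccl11 UMI (69.8%, 62.0%, 65.3% and 71.1% before) and 0 of 121 to 154 endothelial cells did. A count of 0 among 121 cells allows a share of cells with a UMI of up to 2.48%, which is no limit on cells expressing the gene. Before thinning, endothelium held 13, 1, 0 and 2 Ccl11 UMIs.

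Ccl11 moved in opposite directions in the classes. In pericytes it was higher in oviduct (0.58 ± 0.12, edgeR adjusted p = 0.002706), the 1 member of 6 that passed, where 5.35% of 10556 genes did. In mesenchyme it was higher in uterus (-1.64 ± 0.30, adjusted p = 0.001489). The organ effect in mesenchyme minus that in pericytes was -2.21 ± 0.22 and passed the interaction test, as 9.46% of 14344 genes did. Mesenchymal levels were low, and free RNA could account for 3.50% to 19.0% of them. The Rgs5 and Ndufa4l2 cluster, nearest to pericytes and at 212 CPM of Ccl11, had 34 cells gated as mesenchyme. Their part in the mesenchymal levels was not counted. In thinned uterus library 2, 32 mesenchymal cells had Ccl11, and 14 of them also had Cxcl12 where independence would give 5.46.

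Cx3cl1, fractalkine, the membrane-bound ligand of Cx3cr1, was read in epithelium and endothelium. Epithelium had 20.7, 20.3, 16.7 and 15.9 CPM and blood endothelium 12.2, 12.1, 6.59 and 7.92 CPM. The 2 classes did not overlap, and all other classes stayed at or below 1.41 CPM. In endothelium both oviduct libraries lay above both uterine ones, but the difference missed the threshold (0.76 ± 0.26, adjusted p = 0.113), and so did the one in epithelium (0.47 ± 0.25, adjusted p = 0.192). In mesenchyme, at 0.466, 0.730, 0.0882 and 0.120 CPM, the log2 fold change of 2.37 ± 0.56 passed (adjusted p = 0.00615). That call was lost with DESeq2 and without uterus library 1, and free RNA could account for up to 53.4% of the UMIs.

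Cxcl16, the other membrane-bound chemokine and the ligand of Cxcr6, had an order of classes without overlap at the top. Myeloid cells had 220.4, 164, 129 and 118 CPM, epithelium 42.6, 39.0, 60.5 and 56.7 CPM, and mesothelium 19.0, 19.96, 28.4 and 20.8 CPM. The organs differed in mesenchyme, with 8.44, 8.73, 2.56 and 3.05 CPM (1.56 ± 0.15, edgeR adjusted p = 1.933e-05), of which free RNA could account for 5.07% to 10.6%. No difference passed in smooth muscle (0.79 ± 0.30, adjusted p = 0.0716), mesothelium (-0.33 ± 0.19, adjusted p = 0.370) or epithelium (-0.38 ± 0.18, adjusted p = 0.143). In epithelium the direction was opposite to that in mesenchyme, which was not tested. The epithelial clusters behind the class differed, since the Plet1 and Ehf cluster that held 64.3% of oviduct epithelium had no uterine cell.

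In mesenchyme 4 of the 9 members passed, Cxcl13, Cx3cl1 and Cxcl16 higher in oviduct and Ccl11 higher in uterus, where 42.9% of 14919 genes passed. The members' share is close to that background. With the library number as a block 7 of 9 passed against 45.3% of all genes, the additions being Cxcl1 (0.64 ± 0.11), Ccl2 (1.91 ± 0.12) and Ccl7 (1.82 ± 0.19).

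The inducible chemokines Cxcl1, Ccl2 and Ccl7 differed between the 2 libraries of an organ in mesenchyme by more than between the organs. Cxcl1 attracts neutrophils through Cxcr2, and Ccl2 and Ccl7 attract monocytes through Ccr2. In mesenchyme Cxcl1 stood at 12.9, 70.1, 5.47 and 53.0 CPM, high in both libraries numbered 2. Ccl2 stood at 8.81, 78.9, 1.46 and 22.6 CPM and Ccl7 at 2.22, 13.5, 0.573 and 3.69 CPM in the same cells. In all 3 genes the library numbered 2 was the higher one of its organ.

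The comparison of libraries numbered 2 with libraries numbered 1 was added after this was seen. In mesenchyme the log2 fold change of 2 over 1, with organ as a term, was 2.76 ± 0.11 for Cxcl1 (edgeR adjusted p = 8.452e-124), 3.33 ± 0.12 for Ccl2 and 2.61 ± 0.18 for Ccl7. These were 3 of 9 members, all higher in the libraries numbered 2, where 1.27% of all genes were called in that direction and 1.46% in either. With 1 residual degree of freedom per gene, such p-values rest on the spread shared over all genes. The other 6 members did not pass, with values from -0.34 (Cxcl13) to 0.60 (Cx3cl1).

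Cxcl1 and Ccl2 moved with the library number in muscle and pericytes too, and Cxcl1 in endothelium. Smooth muscle had 1.09, 7.63, 2.88 and 33.6 CPM of Cxcl1, a log2 difference of 3.27 ± 0.25 between the library numbers, and 1.85, 11.7, 0.910 and 14.3 CPM of Ccl2, a difference of 3.07 ± 0.29. These were the 2 members called of 7, where 0.611% of genes were. Free RNA could account for up to 37.0% of muscle Cxcl1 and 62.9% of muscle Ccl2, both in oviduct library 1. Pericytes had 51.5, 125, 11.6 and 102 CPM of Cxcl1 (1.89 ± 0.18) and 31.7, 220.2, 12.6 and 102 CPM of Ccl2 (2.84 ± 0.17), 2 of 6 members, where 0.388% of genes were called. Ccl7 in pericytes, at 4.53, 5.98, 2.43 and 1.87 CPM, did not pass (0.11 ± 0.58, adjusted p = 0.999). Blood endothelium had 49.9, 119.9, 18.2 and 51.3 CPM of Cxcl1 (1.37 ± 0.20), 1 of 4 members against 0.172% of genes. Its Ccl2 stayed between 0.857 and 3.04 CPM, of which free RNA could supply between 6.81% and all.

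Mesothelium held most of the oviduct Ccl2. It had 143, 751, 50.7 and 145 CPM and held 63.2% and 66.2% of the Ccl2 UMIs of the oviduct libraries but 17.7% and 9.61% of those of the uterine libraries. These shares also follow the cells captured, which were 463, 468, 79 and 63. Between the organs, without the block, mesothelial Ccl2 gave 2.19 ± 0.64 and did not pass (edgeR adjusted p = 0.0627). The number difference in mesothelium was 2.14 ± 0.14 for Ccl2, 1.92 ± 0.13 for Cxcl1 (45.4, 234, 86.5 and 190.2 CPM) and 2.50 ± 0.17 for Ccl7 (16.8, 101, 6.80 and 22.1 CPM). These were 3 of 7 members, where 1.39% of genes were called. Epithelium, with 20.4, 76.9, 3.51 and 9.44 CPM of Cxcl1, gave 1.86 ± 0.31, 1 of 5 members against 0.240% of genes. These levels rest on 139, 640, 4 and 19 UMIs.

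Over all classes and both organs, with pairs above 3 UMIs, Cxcl1 was higher in the library numbered 2 in 13 of 14 pairs (median ratio 3.29), Ccl2 in 11 of 12 (5.79) and Ccl7 in 8 of 9 (2.66). The median ratio was 1.07 for Cxcl12, 0.983 for Cxcl14, 0.928 for Cxcl16, 1.22 for Ccl11, 1.10 for Cx3cl1 and 0.738 for Cxcl13. In thinned mesenchyme, cells with both Cxcl1 and Ccl2 numbered 47 against 16.6 by independence in oviduct library 2, and 17 against 6.56 in uterus library 2. In droplets with at most 100 UMIs, which hold free RNA, Ccl2 had 48.3, 161, 10.4 and 51.0 CPM and Cxcl1 16.8, 72.5, 8.35 and 39.7 CPM, so the free RNA followed the library numbers too. The bound on free RNA in mesenchyme was 2.35% to 5.67% for Cxcl1, 6.93% to 26.4% for Ccl2 and 5.60% to 34.2% for Ccl7, with the highest value of each in uterus library 1. The 3 mesenchymal values passed after its subtraction.

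**Figure D4:**
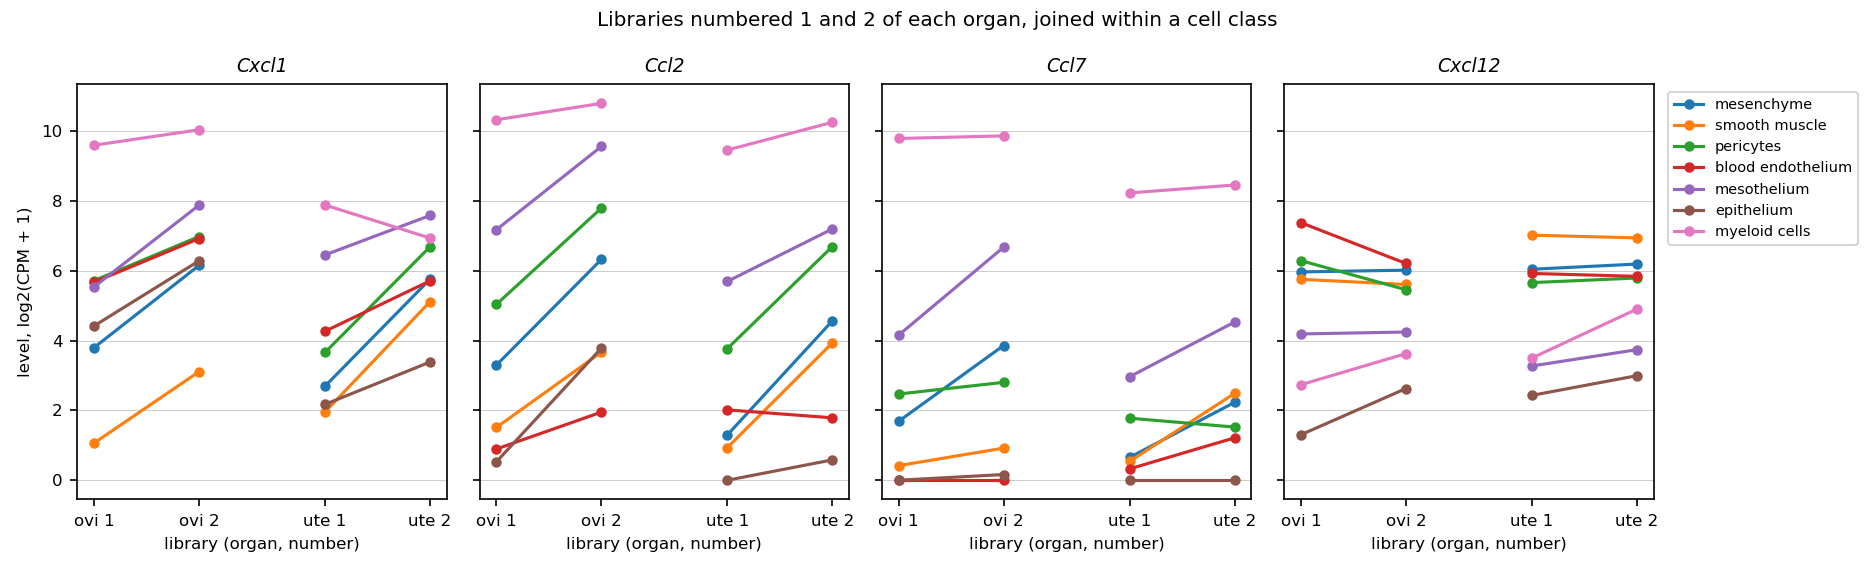
Level, as log2(CPM + 1), of Cxcl1, Ccl2, Ccl7 and, for contrast, Cxcl12 in the 4 libraries (horizontal axis; ovi, oviduct; ute, uterus), with the 2 libraries of an organ joined by a line within each of 7 cell classes (colours). Lines of Cxcl1 rose from library 1 to library 2 in 13 of 14 cases, while Cxcl12 had a median ratio of 1.07.

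Genes of the NF-kB pathway moved with the library number as well. Of 20 listed genes 19 were tested in mesenchyme and 13 were higher in the libraries numbered 2, none lower, where 1.46% of all genes were called, with a list median of 0.93 beside 0.00 over all genes. They included Tnfaip3, a feedback inhibitor of the pathway (2.80, 20.02, 2.69 and 15.2 CPM; 2.71 ± 0.14), and Nfkbia, the inhibitor IkB alpha (213, 478, 100.1 and 340.0 CPM; 1.47 ± 0.12). The number of listed genes called higher was 9 of 17 in smooth muscle, 6 of 18 in pericytes, 6 of 18 in mesothelium, 2 of 18 in endothelium, 1 of 17 in epithelium and 0 of 16 in myeloid cells. The shares over all genes in these classes were 0.611%, 0.388%, 1.39%, 0.172%, 0.240% and 0.274%. Of 29 other chemokine ligands, 6 were tested in mesenchyme and 3 passed, against the same 1.46%: Cxcl2 (3.95 ± 0.20), Cxcl10 (28.4, 158, 14.6 and 121 CPM; 2.74 ± 0.11) and Cxcl5 (0.63). Between the organs, in the fit without the block, calls of the NF-kB list varied by class. In mesenchyme and smooth muscle a smaller share of the list was called than of all genes. In epithelium 8 of 17 were higher in oviduct and 1 lower, where 24.4% of all genes were called. Endothelium had 4 of 18 higher against 3.83%, and pericytes 2 of 18 against 5.35%. Mesenchyme had 3 of 19 higher and 1 lower against 42.9%. Smooth muscle had 2 of 17 lower against 26.2%, and mesothelium and myeloid cells had none called.

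Of 19 immediate early and dissociation response genes, which tissue digestion is known to induce, 8 were higher and 1 lower in the libraries numbered 2 in mesenchyme. The counts were 8 and 0 in smooth muscle, 3 and 0 in pericytes, 14 and 0 in mesothelium, 0 and 0 in endothelium and epithelium, and 0 and 2 in myeloid cells. The share called over all genes was 1.46% in mesenchyme, 1.39% in mesothelium, 0.611% in muscle, 0.388% in pericytes and 0.274% in myeloid cells. The part of digestion and handling in the chemokine values was not tested. Whether the library numbers stand for different animals or for different handling cannot be told apart.

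Whether the organs differed in the inducible genes depended on the fit: over the 7 classes 4 of 17 tests passed without the library number as a block and 13 of 17 with it. The share of all genes called ran from 0.308% in myeloid cells to 42.9% in mesenchyme without the block. With the block it ran from 1.73% to 45.3% in the same classes, so the pooled counts have no single background. The 17 tests also reuse the same 4 libraries. Without the block, mesenchyme gave 0.40 ± 0.80 for Cxcl1, 1.75 ± 0.92 for Ccl2 and 1.73 ± 0.77 for Ccl7 (edgeR adjusted p = 0.711, 0.151 and 0.0941). With the block the adjusted p was 8.11e-08, 6.008e-53 and 3.475e-21. Without oviduct library 2 Ccl2 turned to -0.51 and Cxcl1 to -1.24. In smooth muscle Cxcl1 was -2.14 ± 0.77 (adjusted p = 0.0576) and -2.05 ± 0.23 with the block, which passed, as 3 of 7 members and 25.5% of genes did with the block. It was 0.53 without uterus library 2. In pericytes the block brought Cxcl1 (0.75 ± 0.17) and Ccl2 (1.09 ± 0.16) past the threshold, where 6.32% of genes passed. In mesothelium it did so for Ccl2 (2.03 ± 0.14), Ccl7 (1.98 ± 0.22) and Cxcl12 (0.76 ± 0.28), where 13.3% of genes passed.

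Cxcl1 passed between the organs in 3 classes without the block. It was higher in oviduct in epithelium (2.89 ± 0.53, edgeR adjusted p = 2.3e-04), the 1 member of 5 called where 24.4% of genes were, and this was lost with DESeq2. The uterine side rests on 4 and 19 UMIs. The organs' epithelium lay mostly in different clusters. The Plet1 and Ehf cluster, with 64.3% of oviduct epithelium and no uterine cell, had 23.3 and 79.2 CPM of Cxcl1. The Msx1 and Wfdc2 cluster, with 9.14% of oviduct and 65.6% of uterine epithelium, had 5.497, 12.51, 7.86 and 9.65 CPM. The Wfdc15b and Rab25 cluster, with 25.7% and 34.4%, had 4.96, 19.3, 0 and 11.7 CPM from at most 9 UMIs a library. In both shared clusters the organs overlapped. In blood endothelium it was 1.23 ± 0.30 (adjusted p = 0.01367) although the libraries of the organs overlapped, one of 2 members called of 4 against 3.83% of genes (also 2 of 4 with the block, against 3.76%), and without oviduct library 2 it was 0.52, without uterus library 1 it was 0.68, and neither passed. It also did not pass with DESeq2, with the stricter gate or with clusters in place of the gate. The third class was myeloid cells, given below. Of the 19 immediate early genes, 15 were higher in oviduct in epithelium and 12 in endothelium, with 2 lower in each, and 1 was higher in myeloid cells. With the block the numbers higher were 13, 8 and 1, with 2 lower in each, against 20.3%, 3.76% and 1.73% of all genes. Smooth muscle had 11 higher and 2 lower against 26.2% of all genes, and 13 and 2 with the block against 25.5%. Pericytes had 11 higher and 1 lower in either fit, against 5.35% and 6.32%. Mesothelium had 2 higher and 1 lower against 8.34%, and 8 and 3 with the block against 13.3%. In mesenchyme, where Cxcl1 did not pass and 42.9% of all genes did, 16 were higher and 2 lower in either fit. The part of the immediate early genes in the Cxcl1 difference, or in other members' organ differences such as Ccl11 in pericytes, was not tested.

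Myeloid cells had the highest mean levels of all 3 inducible genes, with few cells behind them and, for Cxcl1 and Ccl2, with libraries that overlapped those of mesothelium. Cxcl1 stood at 770.1, 1046, 234 and 121 CPM (2.33 ± 0.30), Ccl7 at 880.4, 927, 299 and 349 CPM (1.46 ± 0.20) and Ccl2 at 1276, 1769, 700.0 and 1214 CPM (0.64 ± 0.27, adjusted p = 0.615). For Cxcl1 and Ccl7 both oviduct libraries lay above both uterine ones and the edgeR adjusted p was 0.02207 for each, 2 of 5 members called where 0.308% of genes were. With the block 4 of 5 passed against 1.73% of genes, adding Ccl2 (0.68 ± 0.19) and Cxcl14 (2.23 ± 0.49). The value for Cxcl14 rests on 37, 44, 7 and 3 UMIs (52.3, 83.1, 18.0 and 8.65 CPM). Droplets with at most 100 UMIs had 52.4, 63.5, 97.2 and 97.2 CPM of Cxcl14. No member passed between the library numbers, where 0.274% of genes did. Of the 2 clusters behind the class, the one led by Lyz2 and C1qa, known as macrophage genes, had 1456, 1956 and 756 CPM of Ccl2 in the first 3 libraries. The one led by Cma1, with the mast cell protease Mcpt4, had 40.7 to 269.8 CPM over all 4.

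Beyond Cxcl1, the organ effect of several members differed between classes in the interaction test. Ccl2 differed between mesenchyme and blood endothelium (2.15 ± 0.61), a comparison in which 13.3% of 14604 genes passed, and Cxcl12 in the opposite direction (-1.25 ± 0.17). The endothelial side of Ccl2 rests on 4, 9, 12 and 13 UMIs, of which free RNA could supply 74.6%, 100%, 6.81% and 49.4%. Without oviduct library 2 the Ccl2 value was 1.05 and without uterus library 1 it was 1.20, and neither passed. In the interaction fits the library is a term, so the shift between library numbers that mesenchyme and the second class share is taken out.

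Transcripts of both Cxcl12-binding proteins, Cxcr4 and Ackr3, were read, in partly different cells. Cxcr4 had its highest mean levels in myeloid cells (45.2, 47.2, 100.4 and 20.2 CPM), blood endothelium (27.0, 23.5, 17.0 and 20.7 CPM) and pericytes (17.3, 16.9, 15.04 and 10.9 CPM), with no organ difference past the threshold in these 3 classes. In mesenchyme it stayed at 0.221 to 1.36 CPM. Ackr3, a scavenger that binds and removes Cxcl12, was higher in uterus in mesenchyme, muscle and pericytes. It stood at 2.82, 2.99, 32.9 and 33.7 CPM in mesenchyme (-3.57 ± 0.10, edgeR adjusted p = 2.119e-09), at 1.93, 1.88, 19.4 and 20.6 CPM in smooth muscle (-3.40 ± 0.21) and at 3.71, 5.48, 18.9 and 35.6 CPM in pericytes (-2.66 ± 0.36).

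The uterine libraries lay above the oviduct ones without overlap in those 3 classes. They did so in mesothelium too, where Ackr3 stood at 32.0, 28.0, 53.8 and 55.8 CPM (-0.86 ± 0.15, adjusted p = 0.004983). In endothelium, at 8.78, 12.1, 7.60 and 11.5 CPM, none was detected (0.10 ± 0.27, adjusted p = 0.944). In uterine muscle the ligand Cxcl12 and its scavenger Ackr3 were thus both higher than in oviduct muscle. Of the 23 listed receptors and scavengers 8 were tested in mesenchyme and 3 passed, where 42.9% of all genes did, so the share is no higher than that background: Cxcr4 (2.15 ± 0.39) and, lower in oviduct, Ackr3 and Ackr4 (-0.82 ± 0.21).

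**Figure D5:**
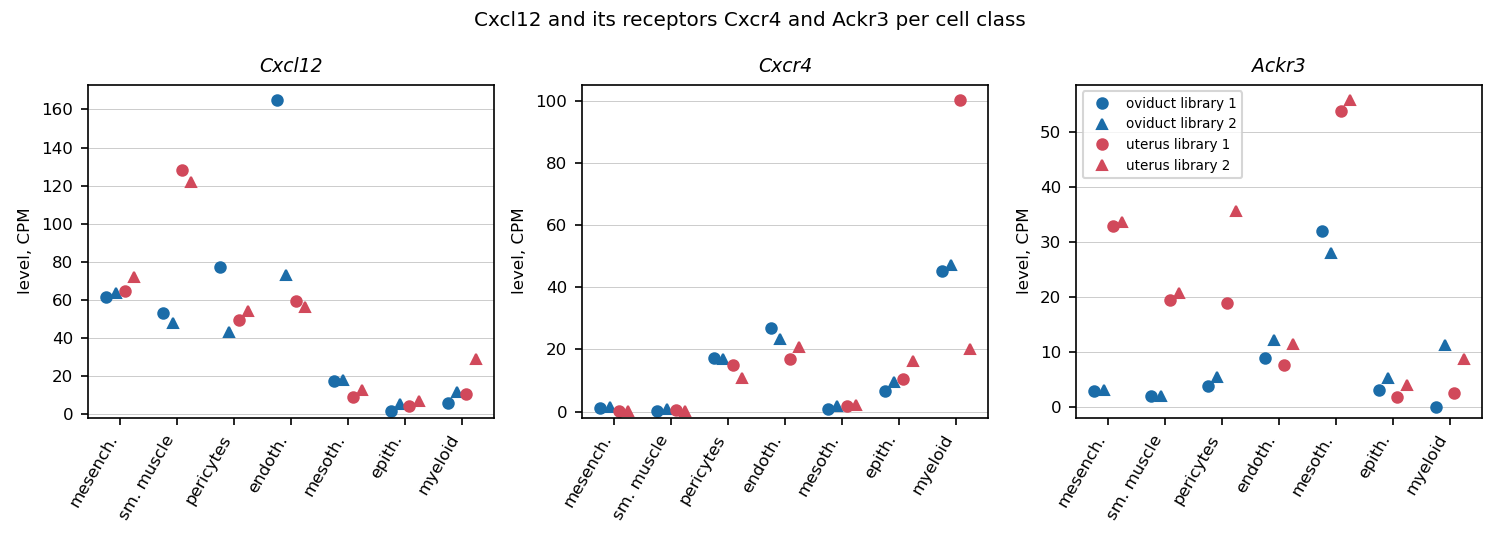
Level in CPM of Cxcl12, its receptor Cxcr4 and its scavenger Ackr3 (one panel each) in 7 cell classes; each point is 1 library (blue oviduct, red uterus). Ackr3 in mesenchyme stood at 32.9 and 33.7 CPM in uterus and at 2.82 and 2.99 CPM in oviduct, while Cxcr4 stayed at or below 1.36 CPM there.

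Myeloid cells carried the receptors of the monocyte and fractalkine ligands. Cx3cr1 stood at 1041, 908, 692 and 637 CPM (0.53 ± 0.18, adjusted p = 0.497), and other classes had at most 0.497 CPM. Ccr2 stood at 52.3, 75.5, 347 and 173 CPM, higher in uterus (-2.06 ± 0.35, edgeR adjusted p = 0.04958, at the edge of the threshold). Ccr1 stood at 273, 242, 149 and 40.4 CPM and did not pass (1.40 ± 0.42, adjusted p = 0.368), though it did with the block. Cxcr5, Cxcr6, Ccr3 and Ackr2, which bind Cxcl13, Cxcl16, Ccl11 and inflammatory CC chemokines, stayed at or below 1.27 CPM in every class, and Cxcr2 reached 10.3 CPM in myeloid cells and at most 1.59 CPM elsewhere. Ackr1 was at most 3.12 CPM, in mesothelium. Of 4 enzymes that shed or trim chemokines, Dpp4, which cuts the start of Cxcl12, was lower in oviduct muscle (1.60, 1.59, 12.4 and 9.83 CPM; -2.82 ± 0.26), and so was Mmp2 (-0.38 ± 0.08), 2 of 4 where 26.2% of genes passed. Mmp2 was also lower in oviduct mesothelium (-0.65 ± 0.12), 1 of 4 against 8.34% of genes, where the block added Adam17.

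Over the 28 sums of 7 classes and 4 libraries, the genes most like each chemokine were found among 6351 genes by Pearson's r of log2(CPM + 1). Sums of a class share its cells and sums of a library its preparation, so r is a description. Cxcl1 was most like Nfkbiz (0.879), Bcl10 (0.869) and Tnfaip3 (0.862), Ccl2 most like Ccl7 (0.922), Map3k8 and Dse, and Ccl7 most like Apoe (0.934), Ccl2 and Psap. Ccl11 was most like Rgs5 (0.975) and Ndufa4l2, both of which define the pericyte class. Cxcl12 was most like Ldb2 (0.897), Sparcl1 and Zeb1, and Cxcl14 most like Clmp (0.889), Psd and Atp2b1. Cxcl16 was most like Rab32 (0.963), Syngr1 and Stxbp2, Cx3cl1 most like Mecom (0.978), Sox17 and Car2, and Cxcl13, with the lowest value, most like Ctsk (0.775), Oaf and Fam110b. Among the members the closest pairs were Ccl2 with Ccl7 and Cxcl1 with Ccl2 (0.815), and the most opposed were Cxcl12 and Cxcl16 (-0.806).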

How the data were processed

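Single-cell RNA was measured in 4 libraries, 2 per organ. The deposited files hold counts of UMIs per gene and barcode, made by the authors with Cell Ranger (6.0.1 in the file headers of the called cells) against mm10, per the submitters' processing notes, which also name Seurat 4.2.3. The aligner's settings and strand handling were not stated. The 9 genes, the gene lists and the comparisons were chosen with earlier results of these data known.

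Barcodes under 500 genes or over 15% mitochondrial UMIs were dropped. Scrublet's own threshold called almost no doublets, so its highest scores were removed at 0.8% per 1000 barcodes. Cells were gated by marker scores (minimum score 0.2), with cut-offs set after the score distributions were seen. Clusters (scanpy 1.11.5, Leiden resolution 1.0, 30 components) were made without chemokine and receptor genes. Counts were summed per library and class, scaled to CPM, and tested with edgeR 4.0.16 (R 4.3.3, quasi-likelihood, TMM, Benjamini-Hochberg over all genes, threshold 0.05). The SE was derived as the size of the log2 fold change divided by the square root of its F statistic. The bound on free RNA came from droplets with at most 100 UMIs and from markers of foreign cell types. Cells with fewer than 3000 UMIs were left out of thinned shares. Intervals and limits cover counting error only. The genes named beside the members were those called in a list, at most 3 per direction by size, the receptors of the members, and the 3 most alike by correlation among genes averaging 20 CPM or more. Some genes that this rule names are not reported here.

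The organs' pools came from the same neonates, but the design text does not say that the library number marks the pool. The reported organ tests have no pair term, and the fit with the number as a block is given beside them where it changes a member's call. Same-numbered libraries' deviations correlated at r = 0.172 in mesenchyme and 0.136 in smooth muscle, and at -0.081 to 0.078 in the other classes. The comparison of library numbers was added after the data were seen. For organ tests within a class, the alternatives were RLE size factors, DESeq2 1.42.0, no filter on low counts and doublets kept. Others were a stricter gate (minimum score 0.3), clusters as classes, free RNA subtracted, the block and leaving out each library. Interaction tests were repeated only with RLE size factors and with each library left out. Comparisons of library numbers were repeated only with RLE size factors, doublets kept, the stricter gate, clusters as classes and free RNA subtracted.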

Additional observations from a re-analysis of the deposited data

Results flagged for a closer look

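In 13 cases the organ effect (log2 of oviduct over uterus) of a chemokine differed between mesenchyme and a second class in the interaction test, each with 2 libraries per organ. These were 6 of 9 members tested against smooth muscle, 2 of 8 against pericytes and 5 of 9 against blood endothelium, where 15.1%, 9.46% and 13.3% of all genes passed. None of the interaction tests was repeated with the stricter gate or with clusters as classes. Mesenchyme minus smooth muscle gave 2.54 for Cxcl1, 1.97 for Ccl2 and 3.82 for Ccl7, the inducible attractants of neutrophils and monocytes. It gave 1.15 for Cxcl12 and 1.34 for Cxcl14, which were higher in uterine muscle, and -1.77 for Ccl11. The muscle side rests on 13, 77, 19 and 212 UMIs for Cxcl1 and 22, 118, 6 and 90 for Ccl2. For Ccl11 it rests on 17, 21, 8 and 12. The value for Ccl7 rests on 4, 9, 3 and 29 muscle UMIs, too few for a test in muscle alone. Free RNA could supply up to 78.0% of them in oviduct library 1, and without uterus library 2 the value was 3.255 and did not pass. Mesenchyme minus pericytes gave 0.73 for Ccl2 and -2.21 for Ccl11. Mesenchyme minus blood endothelium gave -0.96 for Cxcl1, -1.25 for Cxcl12, 2.15 for Ccl2, 8.29 for Ccl7 and -4.69 for Ccl11. The value for Cxcl1 was -0.43 without oviduct library 1 and turned to 0.41 without uterus library 2, and neither passed. The endothelial side of Ccl2 rests on 4, 9, 12 and 13 UMIs, of which free RNA could supply between 6.81% and all, and without oviduct library 2 (1.05) or uterus library 1 (1.20) it did not pass. The endothelial value for Ccl7 is no bound, since oviduct endothelium had 0 UMIs of it, and that for Ccl11 rests on 13, 1, 0 and 2 endothelial UMIs. That for Cxcl12 in endothelium includes oviduct library 1, which stood at 165 CPM against 56.2 to 72.8 CPM in the other libraries.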

How the results depend on the processing

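Of 188 fold changes of members with 1 library left out, 138 kept direction and side of the threshold, 16 lost the call, 19 gained it and 15 turned. Of 343 under the other alternatives the numbers were 299, 6, 28 and 10. The cause of the changes below was not tested. With a library left out, the range for Cxcl1 was -1.24 to 2.86 in mesenchyme, -4.05 to 0.53 in smooth muscle, -0.30 to 2.86 in pericytes and -1.59 to 0.77 in mesothelium, and -1.61 to 0.41 for mesenchyme minus endothelium. For Ccl2 it was -0.51 to 4.85 in mesenchyme, -2.02 to 2.82 in smooth muscle and -0.94 to 3.24 in pericytes. In pericytes Cxcl12 gave -0.36 to 0.55 and Cxcl14 -0.16 to 0.55, and in mesenchyme Cxcl14 gave -0.010 to 0.071. The stricter gate turned Cxcl1 in mesenchyme to -0.21, Ccl2 in smooth muscle to 0.65, and Cxcl12 and Cxcl14 in pericytes to -0.11 and -0.080. Clusters as classes gave -0.093 for Cxcl1 and -0.47 for Cxcl14 in mesenchyme and -0.30 for Cxcl14 in pericytes. Cxcl14 in pericytes was -0.056 with doublets kept, and Cxcl1 in mesothelium -0.024 with free RNA subtracted and -0.22 with the replicate block.

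Genes called between the organs in mesenchyme fell from 6394 to 3869 with the stricter gate, and in smooth muscle from 3351 to 2021 with that gate and 1931 with DESeq2. DESeq2 gave 221 in pericytes (565), 164 in endothelium (424) and 1627 in epithelium (2947). Mesothelium (1075) gave 1640 without the filter and 1712 with the replicate block. Myeloid cells (18) gave 149 without the filter, 11 with doublets kept, 11 with free RNA subtracted and 101 with the block. With a library left out the counts were 265 to 391 in endothelium, 415 to 1019 in mesothelium, 1800 to 2936 in epithelium, 77 to 268 in myeloid cells and 1170 to 1551 for mesenchyme minus endothelium (1939). Between library numbers, pericytes (41) gave 27 with RLE size factors and mesothelium (179) gave 111 with free RNA subtracted. Myeloid cells (16) gave 0 with doublets kept, 3 with the stricter gate, 42 with clusters and 28 with free RNA subtracted. The block changed the calls given beside the results and no other member's.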
